A study of Homo sapiens with 9 samples.

Results

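Metallothioneins are small, cysteine-rich proteins that bind zinc, copper and cadmium in the cytoplasm. The genes described here are 8 metallothionein genes (MT1A, MT1E, MT1F, MT1G, MT1H, MT1M, MT1X and MT2A), MTF1, which encodes the transcription factor that switches them on, and SLC30A1, which encodes the zinc exporter of the plasma membrane. These 10 genes were taken by symbol from the 60623 genes of the deposited count table, and all 10 were found. They were chosen by function but with the measured S239D libraries in view, in which metallothionein counts were already known to be higher, so their differences between S239D and the other groups are a description, given with SE and with no p-value. Other genes and lists carry edgeR's adjusted p-values, but they too were chosen with earlier results of these libraries known.

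RNA was sequenced from 22Rv1 cells, a human prostate carcinoma line of epithelial origin. In all groups PDCD4, a tumour suppressor that inhibits translation initiation, had been depleted with a short hairpin RNA and a form of the protein had then been put back. One group received S239D, in which aspartate replaces a serine and mimics its phosphorylation. A second received S239A, in which alanine replaces the same serine and cannot be phosphorylated, and the third received the wild-type protein (WT). The series asks how phosphorylation of PDCD4 by the kinase PLK1 bears on resistance to enzalutamide, a drug that blocks the androgen receptor. Each group had 3 libraries, with 5696841 to 9688554 counts per library. No metal, steroid or drug treatment of the cells is named in the labels, which also do not say what drove the rescue constructs or whether a line was a clone or a pool. Nor do they say whether the 3 libraries of a group were grown as separate cultures. The p-values therefore reflect the spread among these libraries alone, and that spread may be technical.

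When free zinc rises in a cell, MTF1 binds zinc through its fingers, enters the nucleus and attaches to short DNA motifs called metal response elements. These lie in several copies before the start of metallothionein genes and also before SLC30A1. The metallothioneins then hold the metal and SLC30A1 carries it out of the cell, so the pathway buffers zinc in both ways. Normal prostate epithelium is known for a high zinc content, which is commonly lost in prostate cancer. Metallothionein genes also respond to copper, cadmium, oxidants and glucocorticoids.

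The 8 metallothionein members lay in one cluster on chromosome 16, in a stretch of 75.6 kb from position 56608584 to 56684196 as the deposited table gives it. MT2A (56608584 to 56609497) lay at one end and MT1X (56682470 to 56684196) at the other, with MT1E at 56625475 to 56627112 between them. MT1G (56666731 to 56668065) was the only member of the cluster on the minus strand. MTF1 (37809574 to 37859592, minus strand) and SLC30A1 (211571570 to 211579160, minus strand) lay on chromosome 1. The table's build is not given in the sources used here.

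RefSeq promoter sequences on GRCh38.p14 were matched by symbol for 5 of the 10 genes, MT1H, MT1X, MT2A, MTF1 and SLC30A1. The 250 bases before the annotated start were searched for the metal response element core, spelled TGCACNC or TGCGCNC on either strand. The 4 promoters with a match are shown because they carry the element that defines the pathway, 5′ to 3′ on the strand of the gene, with each match in capitals. MT2A and MT1X are abundant in these cells, SLC30A1 is the exporter, and MT1H is nearly silent in them.
MT2A: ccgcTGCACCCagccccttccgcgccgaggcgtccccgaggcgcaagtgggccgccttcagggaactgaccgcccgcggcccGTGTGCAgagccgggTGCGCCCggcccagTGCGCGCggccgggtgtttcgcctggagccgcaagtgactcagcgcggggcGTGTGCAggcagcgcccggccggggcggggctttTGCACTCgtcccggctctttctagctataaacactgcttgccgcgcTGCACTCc
MT1X: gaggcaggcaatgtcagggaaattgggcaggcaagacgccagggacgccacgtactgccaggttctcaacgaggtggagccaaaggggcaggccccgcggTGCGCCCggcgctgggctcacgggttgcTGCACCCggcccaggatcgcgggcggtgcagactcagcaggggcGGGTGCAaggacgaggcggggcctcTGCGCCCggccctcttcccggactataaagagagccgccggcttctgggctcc
MT1H: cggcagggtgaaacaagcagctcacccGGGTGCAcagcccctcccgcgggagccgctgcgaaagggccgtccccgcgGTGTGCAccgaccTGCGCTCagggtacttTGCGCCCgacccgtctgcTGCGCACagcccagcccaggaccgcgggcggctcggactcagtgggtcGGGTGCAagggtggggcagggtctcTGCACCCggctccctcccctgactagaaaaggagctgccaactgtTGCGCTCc
SLC30A1: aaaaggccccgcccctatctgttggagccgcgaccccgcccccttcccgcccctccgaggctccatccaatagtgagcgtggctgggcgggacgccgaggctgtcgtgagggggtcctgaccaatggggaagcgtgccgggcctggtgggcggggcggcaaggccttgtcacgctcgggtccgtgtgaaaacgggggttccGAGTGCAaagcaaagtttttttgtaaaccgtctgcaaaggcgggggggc
These windows were chr16:56608334-56608583 (plus strand) for MT2A, chr16:56682220-56682469 (plus strand) for MT1X, chr16:56669564-56669813 (plus strand) for MT1H and chr1:211579162-211579411 (minus strand) for SLC30A1.

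At least 1 match to the core was present in 24.8% of the 35116 promoters of the same length. The MT1H promoter held 8 matches, a number reached by 0.0171% of promoters. The MT2A promoter held 7, which 0.0313% of promoters reached, and the MT1X promoter held 4, which 0.37% reached. The SLC30A1 promoter held 1, as many as the 24.8% of promoters with any match, and none was found in the 250 bases before MTF1. The GC box GGGCGG, the core bound by the SP1 family, was present on either strand 6 times before SLC30A1, a number reached by 2.22% of promoters. It was present 2 times each before MT1X and MT2A, 1 of the MT1X copies overlapping a metal response element. The antioxidant response element core TGACNNNGC was found on either strand 1 time each before MT1X, MT2A and SLC30A1, against 10.9% of promoters with any match. A TATAAA box on the gene's strand was found before MT1X and MT2A, which 6.8% of promoters hold. A match is a description of letters and does not show that a factor was bound.

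The 4 members MT1A, MT1H, MT1M and MT1F were nearly silent in all 9 libraries, the number of counts being too low for any comparison. MT1A had 6 counts in all, every one of them in S239A replicate 3. MT1H had 1 count, in S239A replicate 1, and MT1M had 1 count in S239D replicate 2 and 1 in WT replicate 2. MT1F had 12 counts over the S239D libraries, 5 over the S239A libraries and 9 over the WT libraries. In a library, 3 counts corresponded to 0.307 to 0.527 CPM, which is counts scaled to library size. A level under that rested on fewer than 3 counts and was imprecise at this depth. MT1H, whose promoter held the most metal response element matches of the 4 shown, was thus among the silent members. The remaining 6, MT2A, MT1X, MT1E, MT1G, MTF1 and SLC30A1, passed the filter on low counts and were among the 16213 genes tested.

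Among the 4 expressed metallothioneins, MT1G stood furthest apart between the groups. It had 14.2, 21.3 and 15.96 CPM in the S239D libraries, 2.84, 1.97 and 2.05 CPM in the S239A libraries, and 2.93, 2.28 and 3.85 CPM in the WT libraries. Every S239D library was above every other library, and S239A and WT overlapped. Behind these values stood 116, 173 and 152 counts in S239D, 23, 16 and 20 counts in S239A, and 27, 13 and 34 counts in WT. The log2 fold change of S239D over WT was 2.47 (SE 0.23), which is 5.53-fold, and that of S239D over S239A was 2.91 (SE 0.24), 7.5-fold. In bulk RNA, fewer cells with a transcript and less of it per cell cannot be told apart.

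MT1X and MT1E, further isoforms of the first metallothionein class, were higher in S239D by a smaller factor. MT1X had 18.1, 21.3 and 18.5 CPM in S239D, 7.16, 6.39 and 6.86 CPM in S239A, and 8.56, 9.13 and 10.5 CPM in WT. Its 3 groups did not overlap at all, with S239D highest and S239A lowest. MT1E had 20.2, 18.9 and 20.6 CPM in S239D, 7.65, 3.32 and 9.63 CPM in S239A, and 9.21, 11.2 and 9.41 CPM in WT. Here S239D stood above both other groups, and S239A and WT overlapped. Over WT, the log2 fold change of S239D was 1.03 (SE 0.15) for MT1X and 1.01 (SE 0.24) for MT1E. Over S239A, it was 1.502 (SE 0.15) for MT1X and 1.52 (SE 0.25) for MT1E.

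MT2A, which held most of the metallothionein transcripts in these cells, had 80.7, 113 and 89.8 CPM in S239D, 70.7, 45.8 and 84.0 CPM in S239A, and 80.3, 72.9 and 108 CPM in WT. The 3 groups overlapped, and relative to their mean the values varied more within each group than those of MT1X. The log2 fold change of S239D over WT was 0.11 (SE 0.19), with a 95% interval of -0.30 to 0.52. Over S239A it was 0.49 (SE 0.19), short of the threshold. With the replicate number as a block it was 0.52 and past the threshold, but it was 0.35 without S239D replicate 2, 0.29 without S239A replicate 2 and 0.14 without both, short of the threshold in each.

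MTF1, the zinc sensor, had 50.5, 58.1 and 48.8 CPM in S239D, 35.6, 41.5 and 35.2 CPM in S239A, and 33.9, 37.4 and 37.5 CPM in WT. All 3 S239D libraries lay above the other 6, which overlapped with each other. The log2 fold change of S239D was 0.53 (SE 0.11) over WT and 0.49 (SE 0.11) over S239A. In TPM, the transcript abundance that the authors scaled for transcript length, the S239D libraries had 8.90, 10.96 and 8.68, the S239A libraries 6.15, 7.05 and 12.2, and the WT libraries 6.68, 9.35 and 6.56. On that scale S239A replicate 3 was the highest library of all although its count was not, and the groups overlapped.

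SLC30A1, the exporter also known as ZnT1, had 75.1, 74.9 and 63.7 CPM in S239D, 36.7, 40.6 and 32.6 CPM in S239A, and 37.3, 37.9 and 32.3 CPM in WT. The lowest S239D library was well above the highest of the other 6, and S239A and WT covered nearly the same range. The log2 fold change of S239D was 0.99 (SE 0.11) over WT and 0.96 (SE 0.11) over S239A.

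**Figure D1:**
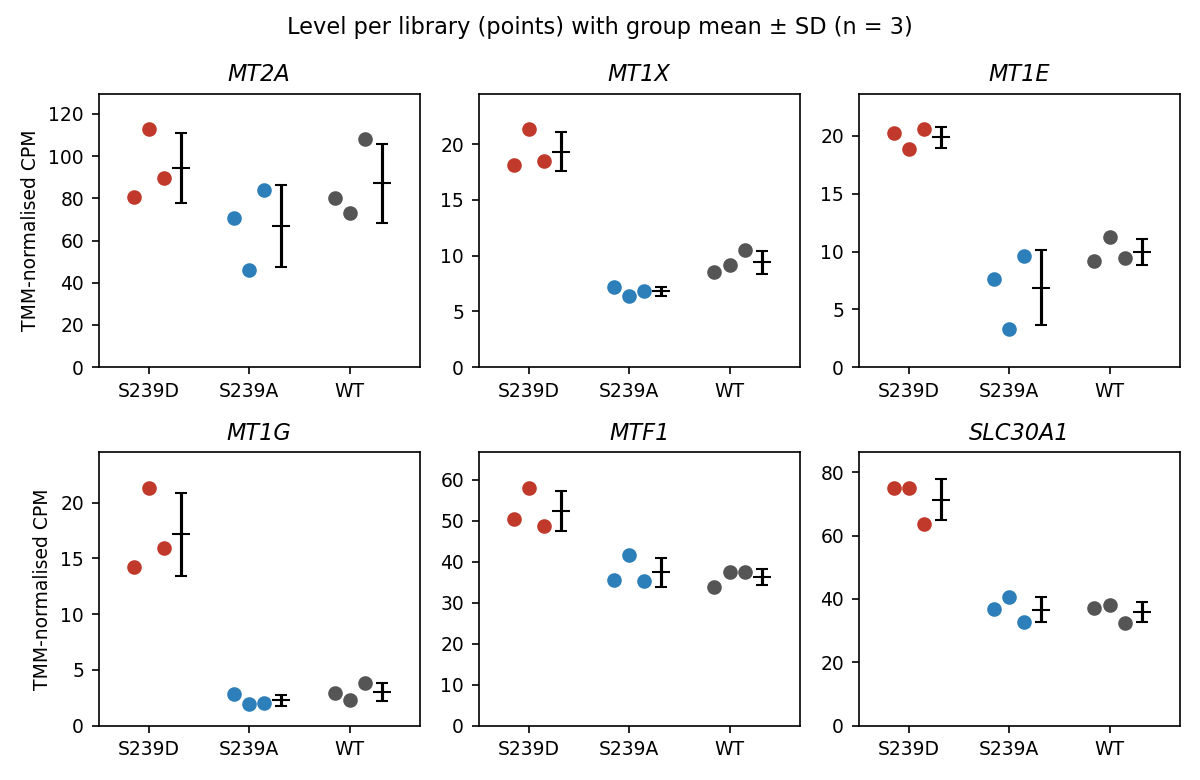
Level of the 6 expressed members in each library, in normalised CPM on axes that start at 0, with S239D, S239A and WT from left to right. Points are libraries, and the bar beside each group of 3 gives the mean and SD. S239D stands above both other groups for MT1X, MT1E, MT1G, MTF1 and SLC30A1, and the 3 groups overlap for MT2A.

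Of the 6 members tested, 5 passed the threshold in S239D against WT, all of them higher, where edgeR called 41.4% of the 16213 genes tested in either direction and 19.7% higher. The same 5 passed it in S239D against S239A, where 43.6% of genes were called in either direction and 20.9% higher. The groups did not overlap for 5 of 6 members, against 26.5% of all genes in which S239D stood wholly above WT and 24.2% in which it stood wholly above S239A. The median log2 fold change of the 6 members was 1.0 over WT and 1.23 over S239A, and that of all genes over WT was 0.00075. These comparisons chose the members, both use the same S239D libraries, and nothing is read from the counts.

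The comparison of S239A with WT did not use the S239D libraries for its difference, and it was tested. It shared the WT libraries with S239D against WT, by which the members were chosen, and its spread was estimated from all 9 libraries. None of the 6 members passed the threshold by edgeR's quasi-likelihood test with Benjamini-Hochberg adjustment, nor by limma on TPM. By edgeR, 1 of them was under 0.05 before adjustment. By DESeq2, MT2A, MTF1 and SLC30A1 did not pass, and MT1E, MT1G and MT1X were given no adjusted p-value. Over all genes edgeR called 0.00617% in this comparison, which was 1 gene of 16213, with 1583 genes under 0.05 before adjustment and 65 called by DESeq2. The 4 metallothioneins had negative log2 fold changes of -0.50 to -0.38 in S239A, and MTF1 and SLC30A1 lay near 0.

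MT1X had the smallest adjusted p-value of the members in S239A against WT. Its log2 fold change was -0.47 (SE 0.16, 95% interval -0.81 to -0.13, unadjusted p = 0.0107, edgeR adjusted p = 0.355). All 3 S239A libraries were below all 3 WT libraries, which held for 9.55% of all genes. For MT1E it was -0.50 (95% interval -1.07 to 0.06, edgeR adjusted p = 0.557) and for MT1G -0.44 (95% interval -1.06 to 0.18, edgeR adjusted p = 0.655). For MT2A it was -0.38 (95% interval -0.80 to 0.03, edgeR adjusted p = 0.550). The values depended on single libraries: MT1E stood at -0.18 without S239A replicate 2 and -0.84 without S239A replicate 3, and MT1G at -0.22 without WT replicate 3. MT2A stood at -0.18 without S239A replicate 2, -0.20 without WT replicate 3 and -0.58 without S239A replicate 3, while MT1X ranged from -0.54 to -0.37 with each library left out. The intervals leave room for a fall of MT1E or MT1G by more than a factor of 2, so the data do not show that the metallothioneins were alike in S239A and WT. MTF1 stood at 0.05 (95% interval -0.19 to 0.28, edgeR adjusted p = 0.931) and SLC30A1 at 0.03 (95% interval -0.22 to 0.28, edgeR adjusted p = 0.962), values whose sign turned in some alternatives. For both of those genes a difference of 2-fold in either direction lies outside the interval.

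**Figure D2:**
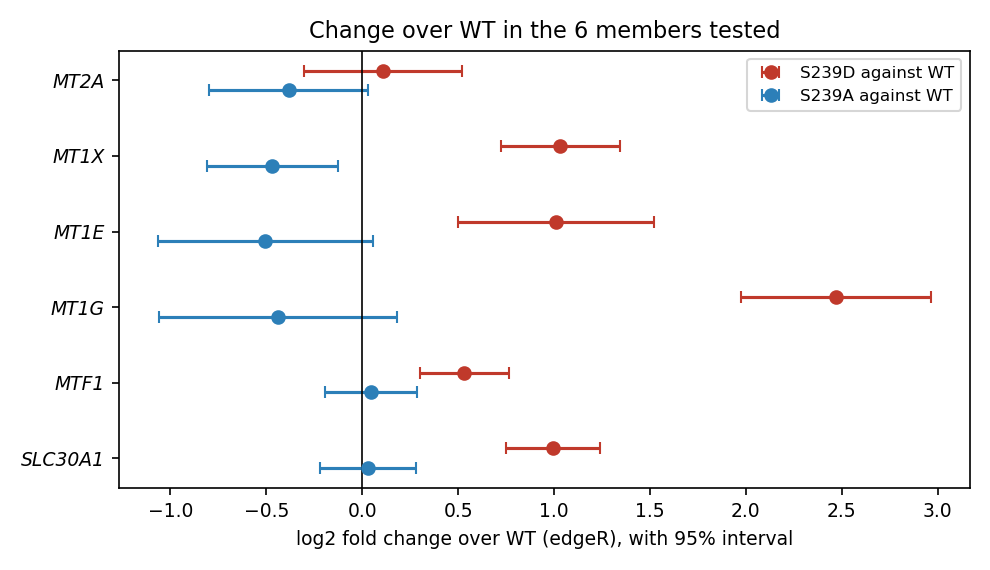
Log2 fold change over WT of the 6 members tested, S239D in red above S239A in blue, with edgeR's 95% intervals, both set against the same WT libraries. In S239D the values run from 0.11 for MT2A to 2.47 for MT1G, and in S239A from -0.50 for MT1E to 0.05 for MTF1.

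Per length, MT2A was the most abundant member in every group. It had 1152 ± 135 TPM in S239D, 800.1 ± 210 TPM in S239A and 1063 ± 146 TPM in WT (SD, n = 3 each). Next in the order of levels was MT1X, with 225 ± 10.1 TPM in S239D, 76.7 ± 4.87 TPM in S239A and 109 ± 6.27 TPM in WT. MT1G followed with 204 ± 32.7 TPM in S239D, 26.6 ± 4.67 TPM in S239A and 35.7 ± 6.74 TPM in WT. In S239D the MT1X and MT1G levels did not differ beyond their spread, while in S239A and in WT every MT1X value lay above every MT1G value.

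MT1E, at 68.5 ± 2.42 TPM in S239D, 21.7 ± 9.90 TPM in S239A and 33.7 ± 3.66 TPM in WT, lay below MT1G in S239D only, the ranges of the pair overlapping in S239A and in WT. SLC30A1 had 17.6 ± 1.94 TPM in S239D, 8.47 ± 1.03 TPM in S239A and 8.30 ± 0.681 TPM in WT. MTF1 had 9.51 ± 1.26 TPM in S239D, 8.48 ± 3.29 TPM in S239A and 7.53 ± 1.58 TPM in WT. SLC30A1 therefore stood above MTF1 in every S239D library, and their ranges overlapped in S239A and in WT.

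The metallothioneins share short stretches of sequence, so their reads can be misplaced between members. The sum over the 8 genes does not depend on how such reads were divided among these 8. It was 134, 175 and 145 CPM in the S239D libraries, 88.5, 57.9 and 103 CPM in the S239A libraries, and 101, 96.0 and 133 CPM in the WT libraries. The lowest S239D library and the highest WT library nearly touched, and S239A overlapped WT. The log2 ratio of the group means was 0.46 for S239D over WT, 0.86 for S239D over S239A and -0.40 for S239A over WT. Without MT2A the sum of the 7 MT1 genes was 56.9 ± 4.85 CPM in S239D, 16.4 ± 3.85 CPM in S239A and 22.8 ± 1.86 CPM in WT (SD, n = 3 each).

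The make-up of the pool of metallothionein transcripts also differed between the groups. MT1G made up 12.3 ± 0.626% of summed metallothionein TPM in S239D, 2.97 ± 0.768% in S239A and 2.85 ± 0.261% in WT (SD, n = 3 each). MT1X made up 13.6 ± 0.833% in S239D, 8.60 ± 2.38% in S239A and 8.84 ± 0.890% in WT. MT1E made up 4.18 ± 0.546% in S239D, 2.24 ± 0.616% in S239A and 2.72 ± 0.396% in WT. MT2A accordingly held 69.6 ± 0.690% of the pool in S239D, 85.7 ± 2.25% in S239A and 85.2 ± 1.12% in WT. For every 100 TPM of MT2A there were 17.1, 18.5 and 17.3 TPM of MT1G in the S239D libraries, 3.90, 4.15 and 2.38 in the S239A libraries, and 3.53, 3.04 and 3.47 in the WT libraries. This ratio within a library does not depend on scaling between libraries, and its S239D values varied little.

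**Figure D3:**
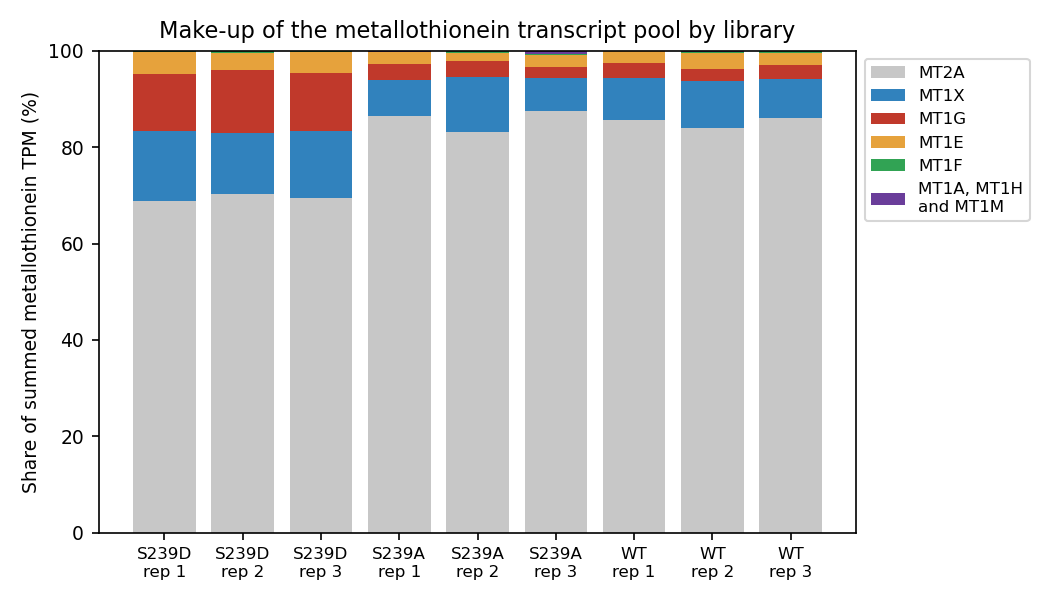
Share of summed metallothionein TPM held by each of the 8 member genes in each library, in percent, with the 3 S239D libraries on the left, S239A in the middle and WT on the right. MT2A holds 68.9 to 70.3% in S239D, 83.1 to 87.5% in S239A and 84.0 to 86.1% in WT, and the MT1G share is largest in S239D.

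Shared reads were looked at in the files and in GENCODE release 29 transcripts. All 72 deposited count values of the 8 metallothioneins were whole numbers, within a tolerance of 1e-06, whereas 3.81% of all values in the count table were not. Of the 50-base windows of the MT1G transcript, 14.3% also occurred in another metallothionein gene, most often MT1H. The share was 10.6% for MT1E, 10.2% for MT1H, 7.05% for MT1M, 4.88% for MT2A and 0% for MT1X. No window of 100 bases was shared by any of them. The read length is not given in the sources used here, so the share of reads that could be misplaced was not tested.

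Some libraries stood out in these genes. S239A replicate 2 had the lowest MT2A and MT1E of its group, at 45.8 and 3.32 CPM, and the largest share of counts from the mitochondrial genome, 5.38%, against 3.33 and 2.99% in the other two. S239D replicate 2 had the highest MT2A, MT1G, MT1X and MTF1 of its group and also the largest mitochondrial share of all libraries, 6.01%. By group that share was 5.21 ± 0.697% in S239D, 3.90 ± 1.29% in S239A and 2.95 ± 0.11% in WT (SD, n = 3 each), and its part in the results was not tested. Without both of these libraries the log2 fold change of S239D over WT was 2.28 for MT1G, 0.96 for MT1X, 1.05 for MT1E and 0.96 for SLC30A1, and that of MT2A was -0.04. Over S239A it was then 2.64 for MT1G, 1.39 for MT1X, 1.23 for MT1E, 1.01 for SLC30A1 and 0.14 for MT2A.

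PDCD4 itself had 16.8, 17.1 and 17.0 CPM in S239D, 19.0, 23.1 and 25 CPM in S239A, and 24.1, 24.9 and 20.4 CPM in WT, endogenous and rescue transcripts together. It fell in S239D against WT (log2 fold change -0.44, edgeR adjusted p = 0.0164) and did not pass the threshold in S239A (-0.04). All 9 markers of prostate luminal epithelium were present, with a summed level of 3414 to 3771 CPM in S239D, 4827 to 5347 CPM in S239A and 4543 to 4644 CPM in WT. Endothelial markers summed to at most 0.857 CPM in any library, with CDH5 at 0 in all 9, and immune markers to 1.26 to 3.83 CPM, with CD3E at 0 in all 9. The 6 stromal markers summed to 44.7 to 54.8 CPM in S239D, 70.1 to 73.6 CPM in S239A and 62.9 to 75.0 CPM in WT, mostly COL1A1 and LUM. The part of these differences in the metallothionein results was not tested.

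The rest of the metallothionein family was nearly silent. Of 13 further metallothionein genes and pseudogenes, 12 were in the table and 2 had any count, MT3 and MT1L. MT3, the isoform best known from brain, had 2, 0 and 2 counts in S239D, 15, 7 and 17 counts in S239A, and 15, 9 and 14 counts in WT. It was thus lower in every S239D library than in any other, while MT1E, MT1G and MT1X were higher there. Lower calls made up 21.7% of all genes in S239D against WT and 22.7% in S239D against S239A. MT3 fell in S239D against WT (log2 fold change -3.25, SE 0.64, edgeR adjusted p = 0.00106) and against S239A (-3.15, SE 0.64, edgeR adjusted p = 0.0012), and gave -0.10 in S239A against WT (edgeR adjusted p = 0.968). From 4 counts in S239D against 38 in WT, the ratio was 0.0969, with an exact 95% interval of 0.0251 to 0.269 that covers counting error only. MT1L, an expressed pseudogene, had 8, 5 and 3 counts in S239D, 18, 8 and 13 counts in S239A, and 12, 4 and 8 counts in WT. Its log2 fold change in S239D was -0.66 against WT (edgeR adjusted p = 0.350) and -1.25 against S239A (edgeR adjusted p = 0.0592).

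The genes around the cluster were counted in the same way, beside 19.7% of all genes called higher and 21.7% lower in S239D against WT. Of 17 genes with a symbol that start within 500 kb of the cluster, 10 were tested, and in S239D against WT 2 were higher and 5 lower, with a median log2 fold change of -0.25. NUDT21, an RNA cleavage factor subunit, fell (-0.35, edgeR adjusted p = 0.0106). HERPUD1, a protein of endoplasmic reticulum quality control, had 113 ± 2.68 CPM in S239D and 191 ± 7.71 CPM in WT (SD, n = 3 each) and fell by 0.76 on the log2 scale (edgeR adjusted p = 6.48e-06). OGFOD1, a ribosomal protein hydroxylase, rose by 0.37 (edgeR adjusted p = 0.00914). Over the whole of chromosome 16, 207 of 818 tested genes were higher and 121 lower, with a median of 0.10. In S239A against WT 0 of the 10 neighbours passed edgeR's test, 1 being under 0.05 before adjustment.

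**Figure D4:**
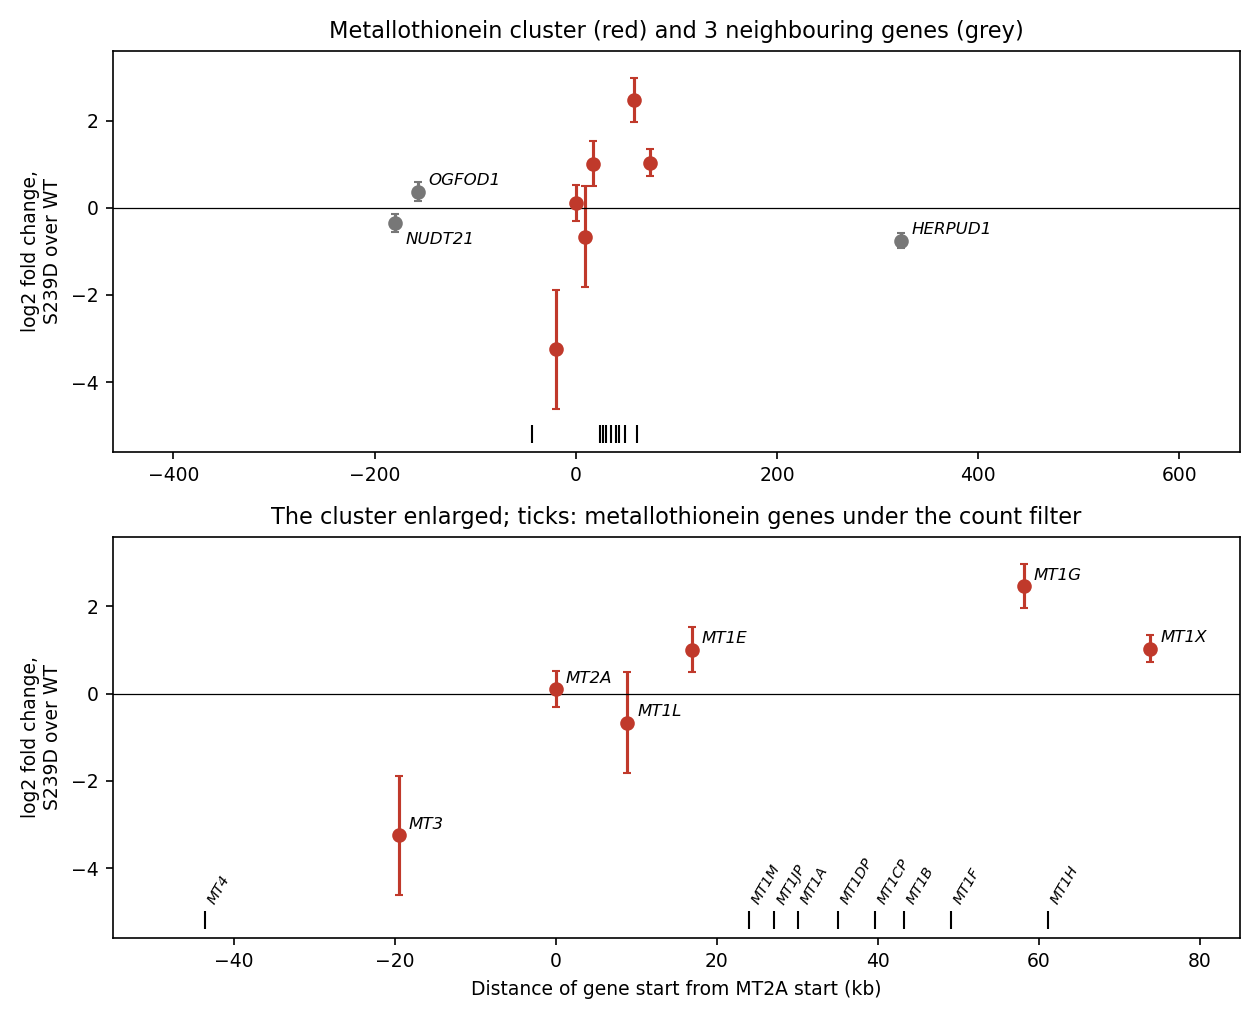
Log2 fold change of S239D over WT, with edgeR's 95% intervals, against the distance of each gene start from that of MT2A in kb, for the cluster with its neighbours NUDT21, OGFOD1 and HERPUD1 (top) and for the cluster alone (bottom). MT1E, MT1G and MT1X lie at 1.01 to 2.47, MT2A at 0.11 and MT3 at -3.25, and ticks mark the metallothionein genes with too few counts to be tested.

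The remaining zinc transporters were counted as 2 lists, beside 19.7% of all genes called higher and 21.7% lower in S239D against WT. The SLC30 proteins carry zinc out of the cytoplasm, either from the cell or into vesicles. Of the 9 others in the table, 7 were tested, and in S239D against WT 2 rose, 0 fell and 5 did not pass, with a median log2 fold change of -0.01. SLC30A4, a loader of late endosomes, had 14.4 ± 2.50 CPM in S239D, 9.03 ± 1.97 CPM in S239A and 7.97 ± 0.442 CPM in WT (SD, n = 3 each), and it rose by 0.85 (SE 0.19, edgeR adjusted p = 0.00256). SLC30A7, which supplies zinc to the Golgi, had 39.7 ± 3.19 CPM in S239D, 31.6 ± 3.26 CPM in S239A and 28.7 ± 1.77 CPM in WT, and it rose by 0.47 (SE 0.11, edgeR adjusted p = 0.00424). By limma on TPM, SLC30A4 did not pass (0.42, adjusted p = 0.210). Against S239A, which shares the S239D libraries with that comparison, SLC30A4 rose by 0.68 (edgeR adjusted p = 0.00849) and SLC30A7 by 0.33 (edgeR adjusted p = 0.0273).

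The SLC39 proteins carry zinc into the cytoplasm. The list had 14 genes, of which 11 were tested, and in S239D against WT 1 rose, 2 fell and 8 did not pass, with a median log2 fold change of -0.03. Of all genes, 19.7% were called higher and 21.7% lower. SLC39A11 had 6.32 ± 1.26 CPM in S239D, 16.2 ± 1.58 CPM in S239A and 15.3 ± 1.502 CPM in WT (SD, n = 3 each), and it fell by 1.27 (SE 0.17, edgeR adjusted p = 5.81e-05). By limma on TPM it did not pass (-0.48, adjusted p = 0.218). SLC39A3 had 43.1 ± 5.76 CPM in S239D, 50.8 ± 0.718 CPM in S239A and 59.5 ± 5.82 CPM in WT, and it fell by 0.46 (SE 0.11, edgeR adjusted p = 0.00495). SLC39A4, the importer mutated in the inherited zinc deficiency acrodermatitis enteropathica, had 35.8, 23.7 and 35.4 CPM in S239D, 21.2, 17.8 and 23.7 CPM in S239A, and 19.9, 20.5 and 25.7 CPM in WT. It rose by 0.52 in S239D (SE 0.17, edgeR adjusted p = 0.0234) although its S239D and WT libraries overlapped. It lost the call by limma on TPM and without S239D replicate 1 or 3 or WT replicate 1 or 2, with 0.42 to 0.68 and an adjusted p of up to 0.103 over all alternatives.

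**Figure D5:**
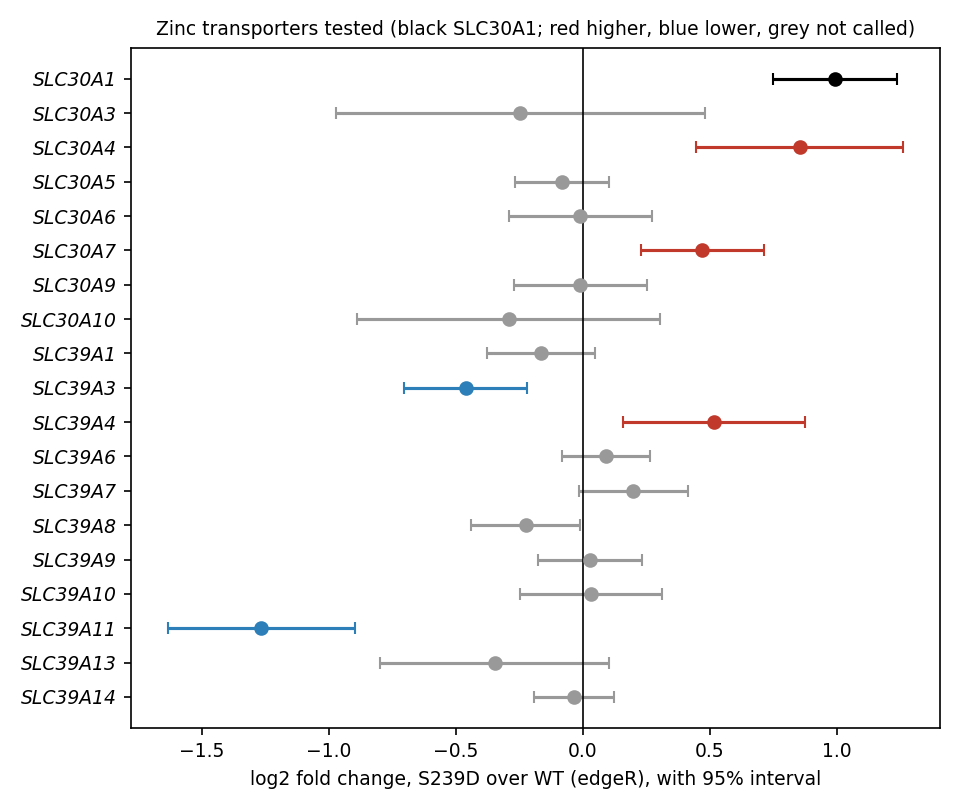
Log2 fold change of S239D over WT, with edgeR's 95% intervals, for SLC30A1 (black) and the other zinc transporters tested, red where higher, blue where lower and grey where the test was not passed. SLC30A1 at 0.99 and SLC30A4 at 0.85 have the highest values, and SLC39A11 at -1.27 the lowest.

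Genes tied to zinc sensing and MTF1 were given as a further list, of which 7 of 9 were in the table and tested. In S239D against WT 2 rose and 1 fell, where 19.7% of all genes were called higher and 21.7% lower. EP300, an acetyltransferase found in a complex with MTF1 in mouse cells, had 201 ± 16.6 CPM in S239D, 111 ± 14.0 CPM in S239A and 101 ± 2.39 CPM in WT (SD, n = 3 each), and it rose by 1.0 (SE 0.10, edgeR adjusted p = 3.62e-06). SP1, which binds GC boxes, rose by 0.28 (edgeR adjusted p = 0.0274). That call was lost by limma on TPM and without S239D replicate 3 or any 1 of the WT libraries, with 0.25 to 0.34 and an adjusted p of up to 0.106 over all alternatives. SLC40A1, the iron exporter ferroportin and in mouse a target of MTF1, had 9.38 ± 1.26 CPM in S239D, 17.0 ± 2.30 CPM in S239A and 17.2 ± 0.191 CPM in WT, and it fell by 0.87 (SE 0.15, edgeR adjusted p = 0.000413). The other 4 did not pass the test.

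Of 12 copper handling genes, all tested, 0 rose and 3 fell in S239D against WT, with a median of 0.02. The shares over all genes were 19.7% higher and 21.7% lower. SOD1, the copper and zinc superoxide dismutase, had 114 ± 7.63 CPM in S239D and 153 ± 14.2 CPM in WT (SD, n = 3 each) and fell by 0.43 (SE 0.10, edgeR adjusted p = 0.00392). ATP7A, a copper pump, fell by 0.52 (edgeR adjusted p = 0.0123), and lost the call by limma on TPM and without S239D replicate 3 or WT replicate 1 (-0.65 to -0.39 and an adjusted p of up to 0.171 over all alternatives). ATOX1, the chaperone that hands copper to it, fell by 0.61 (edgeR adjusted p = 0.0309). It lost the call by limma on TPM and without any 1 of the S239D or WT libraries, with -0.67 to -0.53 and an adjusted p of up to 0.111 over all alternatives. In S239A against WT 0 genes of the SLC30, SLC39, copper and zinc sensing lists passed edgeR's test, with 0, 0, 1 and 0 under 0.05 before adjustment.

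Across the 9 libraries, the genes whose pattern was most like that of the summed metallothioneins were found by the root mean square difference of centred log2 CPM, among genes of at least 5 CPM on average. They were SMPDL3A, a secreted phosphodiesterase (0.119), SNHG20, a small nucleolar RNA host gene (0.158), TTYH2, a membrane protein of the tweety family (0.161), ADCYAP1, the neuropeptide PACAP (0.176), and ISCU, the scaffold for iron-sulphur cluster assembly (0.183). SMPDL3A had 30.7, 39.3 and 34.8 CPM in S239D, 22.8, 16.1 and 27.0 CPM in S239A, and 27.0, 23.5 and 28.9 CPM in WT. Like MT2A, it was lowest in S239A replicate 2. These genes were chosen for this pattern, so their levels are a description.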

How the data were processed

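Messenger RNA was selected from column-purified total RNA on poly-T beads and copied with random hexamers, per the labels' protocols. The authors deposited expected counts per gene, with no scaling between libraries, and TPM, which the authors scaled within each library. The submitters' processing notes name Trimmomatic 0.39 and RSEM. The sources used here do not give the aligner, genome build, annotation, strandedness or read length.

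Expected counts were rounded to whole numbers, given TMM factors and passed through filterByExpr, after which 16213 of 60623 genes remained. All 9 libraries entered 1 edgeR fit (version 4.0.16, R 4.3.3) with a mean per group, and contrasts were tested two-sided by quasi-likelihood F tests. Benjamini-Hochberg adjustment ran over all genes tested, with calls at 0.05. Log2 fold changes, SE and 95% intervals are edgeR's, and levels are TMM-normalised CPM or deposited TPM with SD. The scripts were tested on simulated data with known changes.

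The members and lists were chosen with earlier results of these data known. All 10 members are named. Of each other list, called genes with the largest change in S239D against WT are named, at most 4. Neighbours of the cluster are named by mean CPM, and 1 result is not reported here. Replicate numbers come from the titles of the libraries. Deviations from group means had correlations across genes of 0.11, 0.29 and 0.12 in same-numbered S239D and S239A libraries. With unlike numbers, S239D replicate 1 and S239A replicate 3 gave 0.18, and S239D replicate 3 and S239A replicate 1 gave 0.03. The remaining pairs of unlike number gave -0.24 to -0.12. Only the replicate 2 pair thus exceeded every pair of unlike number. WT libraries gave -0.01 to 0.08 with same-numbered libraries of the variants. The replicate block was fitted to all 9 libraries, so it paired same-numbered WT libraries with the variants as well. Alternatives were RLE scaling, DESeq2 1.42.0, limma 3.58.1 on log2(TPM + 1) where 3 libraries reached 1 TPM, all genes unfiltered, only genes with 1 CPM in 6 libraries, the compared groups alone, the replicate block, each library left out in turn, and both variants' replicate 2 left out together.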

Additional observations from a re-analysis of the deposited data

How the results depend on the processing

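In S239A against WT, 0 members passed the threshold in every alternative run, and the number of genes called over all genes, 1, was 142 with no filter on low counts, 65 by DESeq2, 2 by limma on TPM, 6 with the replicate number as a block, 874 without replicate 2 of both variants, and 1 to 8 with each library left out (8 without S239D replicate 2, 2 without WT replicate 3). DESeq2 gave no adjusted p-value for MT1E, MT1G and MT1X in S239A against WT, so for them it shows no more than direction. In S239D against WT, 6708 genes were called, 4351 by limma on TPM. In S239D against S239A it was 7064, and 4697 by limma on TPM. Members called numbered 5 in both, 4 by limma on TPM, where MTF1 missed the threshold (0.31 over WT, 0.20 over S239A), and 6 in S239D against S239A in the 6 settings in which MT2A passed (no filter, 1 CPM in 6 libraries, the block, or without S239D replicate 1, S239A replicate 3 or WT replicate 3, with 0.49 to 0.69, against 0.14 to 0.55 in the others). The block changed no other call of a member.

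Of 306 recomputed fold changes of the 6 tested members, 289 kept direction and side of the threshold, and 9 changed sign, each of them near 0. The 289 include MT1E, MT1G and MT1X by DESeq2 in S239A against WT, which kept direction but had no adjusted p-value. Leaving out 1 library gave up to 0.30 for MT2A in S239D against WT (without WT replicate 3), and up to 0.090 for MTF1 and 0.11 for SLC30A1 in S239A against WT (both without S239A replicate 3). MT2A in S239D against WT turned to -0.036 without S239D replicate 2, -0.00021 without WT replicate 2 and -0.041 without replicate 2 of both variants. In S239A against WT, MTF1 turned to -0.034 without S239A replicate 2, -0.0014 without WT replicate 1 and -0.032 without replicate 2 of both variants, and SLC30A1 to -0.049 without S239A replicate 2, -0.040 without WT replicate 3 and -0.048 without replicate 2 of both variants. The cause was not tested. The log2 ratio of the summed metallothionein level ranged from 0.34 to 0.62 for S239D over WT, 0.66 to 1.05 for S239D over S239A and -0.59 to -0.20 for S239A over WT. The number of counts limits MT1A, MT1F, MT1H and MT1M, which were not tested, and MT1G in S239A and WT, with 13 to 34 counts per library.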

Other observations

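Glucocorticoids and proteotoxic stress also act on metallothionein genes, and genes of both responses were counted. Over all genes, S239D against WT gave 19.7% higher and 21.7% lower calls. A list of 12 genes held NR3C1, which encodes the glucocorticoid receptor, and genes that the receptor induces. Of these 12, 11 were tested, and in S239D against WT 2 rose, PER1 and NR3C1, and 6 fell, with a median log2 fold change of -0.46. KLF9, a transcription factor, had 22.1 ± 1.99 CPM in S239D, 90.8 ± 4.50 CPM in S239A and 65.5 ± 3.84 CPM in WT (SD, n = 3 each) and fell by 1.57 (edgeR adjusted p = 1.07e-07). NFKBIA, an inhibitor of NF-kB, fell by 0.70 (edgeR adjusted p = 0.000733). PER1, a clock protein, had 135 ± 20.4 CPM in S239D, 81.6 ± 4.78 CPM in S239A and 59.0 ± 5.36 CPM in WT and rose by 1.19 (edgeR adjusted p = 2.82e-06). NR3C1, the receptor itself, had 86.0 ± 9.65 CPM in S239D, 41.3 ± 8.05 CPM in S239A and 40.3 ± 3.74 CPM in WT and rose by 1.10 (edgeR adjusted p = 2.66e-05). In S239A against WT 0 of the 11 passed edgeR's test, and 6 were under 0.05 before adjustment.

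Of 14 genes of the heavy metal and proteotoxic response, all tested, 3 rose and 3 fell in S239D against WT, with a median of -0.12. Calls over all genes in that comparison were 19.7% higher and 21.7% lower. HSPA1A, an inducible chaperone, had 41.6 ± 1.14 CPM in S239D, 139 ± 11.1 CPM in S239A and 116 ± 9.74 CPM in WT (SD, n = 3 each) and fell by 1.47 (edgeR adjusted p = 9.78e-08), a value that is uncertain because the near-identical HSPA1B can take its reads. DDIT3, a stress transcription factor, rose by 1.07 (edgeR adjusted p = 9.78e-05), and so did ATF3, another (0.95, edgeR adjusted p = 5.70e-05). HSPH1, a chaperone, rose by 0.61 (edgeR adjusted p = 0.000469). In S239A against WT 0 of the 14 passed edgeR's test, with 2 under 0.05 before adjustment.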
